A study of Mus musculus with 9 samples.

Results

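Lgals9, Tnfrsf14, Pvr, Nectin2, Cd47 and Cd276 encode surface or secreted proteins through which a cell can restrain immune cells. They were chosen by name, and every ATAC-seq peak that overlapped 1 of the 6 gene bodies or lay within 20 kb of it was kept. The peaks of 9 libraries formed 16 merged regions at these genes, out of 32649 merged regions in the whole series. ATAC-seq uses a transposase that cuts and tags open DNA, so a peak marks accessible chromatin and does not measure how much of a gene is expressed.

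The libraries came from cells of B16, a mouse melanoma line, that were injected into mice and sorted from tumours harvested on day 15. B16_IFNy cells had been treated chronically with interferon gamma (labelled IFNy) before injection, for 2 weeks in replicates 1 and 2 and for 3 weeks in replicate 3. 499_NT is strain 499, a B16 derivative resistant to checkpoint blockade, with no treatment, and B16_NT is untreated B16. Each group had 3 libraries, and all 9 shared the B16 origin, growth in mice and sorting. The interferon was given before injection, so all of these tumour cells had grown in a host since, and strain 499 is a single derived strain. No label ties the replicates to different mice, so the p-values speak of the spread between these libraries, which may be technical, and the sort markers are not given in the sources used here.

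Inhibitory receptors on T cells, NK cells and macrophages dampen killing or engulfment when a ligand on another cell engages them. CD47 binds SIRPα on macrophages and acts as a signal against engulfment, while CD155 (Pvr) and CD112 (Nectin2) are adhesion molecules of the nectin family that bind the inhibitory receptor TIGIT and the activating receptor CD226. Galectin-9 (Lgals9) is a sugar-binding protein known as a ligand of TIM-3, HVEM (Tnfrsf14) engages BTLA and CD160 and is also the receptor of LIGHT, and B7-H3 (Cd276) is a member of the B7 family whose receptor is less settled. Interferon-responsive promoters are commonly bound by STAT and IRF factors, and IRF factors recognise the interferon-stimulated response element, whereas many broadly active promoters are rich in CpG and hold GC boxes bound by SP factors.

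The promoter windows of 5 of the 6 genes, taken from RefSeq on build GRCm38.p6, are shown because they differ in the features that come up beside the peaks. Each runs 5′ to 3′ on the gene's own strand, from 250 bases before the annotated start to 50 after it. The windows are chr11:78984875-78985174, minus strand, for Lgals9, chr4:154928028-154928327, minus strand, for Tnfrsf14, chr7:19749524-19749823, minus strand, for Nectin2, chr16:49855404-49855703, plus strand, for Cd47, and chr9:58554984-58555283, minus strand, for Cd276. Capitals mark matches to the interferon-stimulated response element, GAAA and GAAA with 2 bases of any kind between them on either strand, in Lgals9 and Tnfrsf14.
Lgals9: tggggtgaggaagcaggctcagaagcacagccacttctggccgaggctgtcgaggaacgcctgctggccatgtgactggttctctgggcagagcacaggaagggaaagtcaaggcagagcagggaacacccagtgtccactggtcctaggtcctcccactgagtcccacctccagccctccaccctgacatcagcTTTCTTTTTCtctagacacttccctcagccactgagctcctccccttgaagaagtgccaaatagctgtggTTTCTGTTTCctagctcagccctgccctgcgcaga
Tnfrsf14: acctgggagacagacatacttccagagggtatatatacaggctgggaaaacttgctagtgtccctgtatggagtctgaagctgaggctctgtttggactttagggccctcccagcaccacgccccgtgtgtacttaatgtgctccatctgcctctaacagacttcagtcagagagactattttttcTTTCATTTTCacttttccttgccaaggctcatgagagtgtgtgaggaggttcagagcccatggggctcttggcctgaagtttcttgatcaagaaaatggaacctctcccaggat
In the other 3 windows, capitals mark the GC box, GGGCGG on either strand.
Nectin2: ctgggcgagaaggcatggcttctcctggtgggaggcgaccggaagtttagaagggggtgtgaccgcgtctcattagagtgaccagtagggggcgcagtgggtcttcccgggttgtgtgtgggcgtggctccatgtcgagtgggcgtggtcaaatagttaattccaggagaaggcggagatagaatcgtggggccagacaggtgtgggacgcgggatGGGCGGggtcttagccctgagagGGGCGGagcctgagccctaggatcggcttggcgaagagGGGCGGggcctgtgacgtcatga
Cd47: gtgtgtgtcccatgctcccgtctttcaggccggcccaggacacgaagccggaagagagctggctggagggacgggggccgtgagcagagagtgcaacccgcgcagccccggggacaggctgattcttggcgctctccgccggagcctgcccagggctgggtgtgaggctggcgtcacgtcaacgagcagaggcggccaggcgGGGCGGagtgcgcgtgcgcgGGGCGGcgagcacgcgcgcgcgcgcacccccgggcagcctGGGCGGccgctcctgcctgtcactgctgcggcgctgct
Cd276: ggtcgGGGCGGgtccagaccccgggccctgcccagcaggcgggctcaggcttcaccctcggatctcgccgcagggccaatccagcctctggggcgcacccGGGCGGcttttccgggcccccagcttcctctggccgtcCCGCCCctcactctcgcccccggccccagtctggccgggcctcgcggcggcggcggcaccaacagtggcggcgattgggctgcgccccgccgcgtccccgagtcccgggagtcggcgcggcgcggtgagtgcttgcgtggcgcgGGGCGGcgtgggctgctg

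The response element was matched at 2 places in the Lgals9 window, beginning 55 bases before and 15 bases after the start, and at 1 place in the Tnfrsf14 window, 64 bases before it. Of 32851 promoter windows, 3.44% held at least 1 such match and 74, or 0.225%, held at least 2. The Nectin2 and Cd47 windows each held 3 GC boxes and the Cd276 window held 4, against 35.7% of windows with at least 1. Nectin2 also held 1 CRE, TGACGTCA, 39 bases after its start, a motif present in 1.79% of windows. None of the 5 windows held the GAS motif TTCNNNGAA (8.30% of windows), the AP-1 motif TGANTCA (7.81%) or the E-box CACGTG (7.15%). A match is only a match of letters, and neither binding nor use of a site was measured.

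The windows also divided by CpG content. The ratio of observed to expected CpG was 0.160 for Lgals9 and 0.113 for Tnfrsf14, against 0.796 for Nectin2, 0.862 for Cd47 and 0.848 for Cd276. A peak overlapped the Cd47 and Nectin2 windows in all 9 libraries, the Lgals9 window in 4, the Cd276 window in 1 and the Tnfrsf14 window in 0. Among coding windows within 0.05 of the CpG ratio of Lgals9, 4.88% had a peak in any library, and for Tnfrsf14 the share was 3.01%. For windows like that of Cd276, 85.3% had a peak in at least 1 library and 50.2% in all 9. Cd276 thus had a CpG-rich window with fewer peak calls than most windows of its kind, and Lgals9 a CpG-poor window with more.

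**Figure D1:**
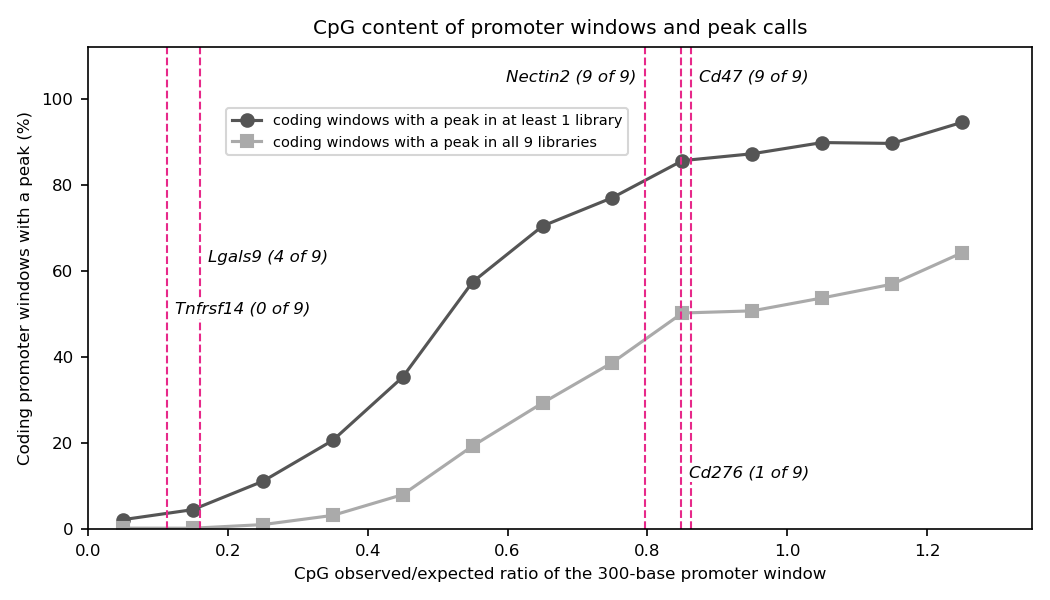
Share of coding promoter windows with a peak (y axis, %) by the ratio of observed to expected CpG (x axis, bins of windows), for a peak in at least 1 library (dark circles) and in all 9 (grey squares). Dashed lines mark the 5 genes with the number of libraries that had a peak on the window: Cd47 and Nectin2 with 9 of 9 and Cd276 with 1 of 9 stand close together on the x axis.

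Of the 16 regions, 3 were called in every library (18.9% of all regions in the series were) and 8 in a single library (36.8% of all regions). The 3 constant regions lay at the Cd47 start, at the Nectin2 start and just beyond the far end of Nectin2. Of the 16, 7 were called in B16_NT alone (31.3% of all regions), and B16_NT replicates 2 and 3 had the longest lists, with 25374 and 20139 peaks. List length thus moved with these calls. The other lists held 16240, 13175 and 11183 peaks in B16_IFNy, 15396, 9221 and 11768 in 499_NT, and 15045 in B16_NT replicate 1. In lists limited to the 9214 most significant peaks of each library, 9 regions were left at the 6 genes. How far list length sets the calls of single regions was not tested.

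**Figure D2:**
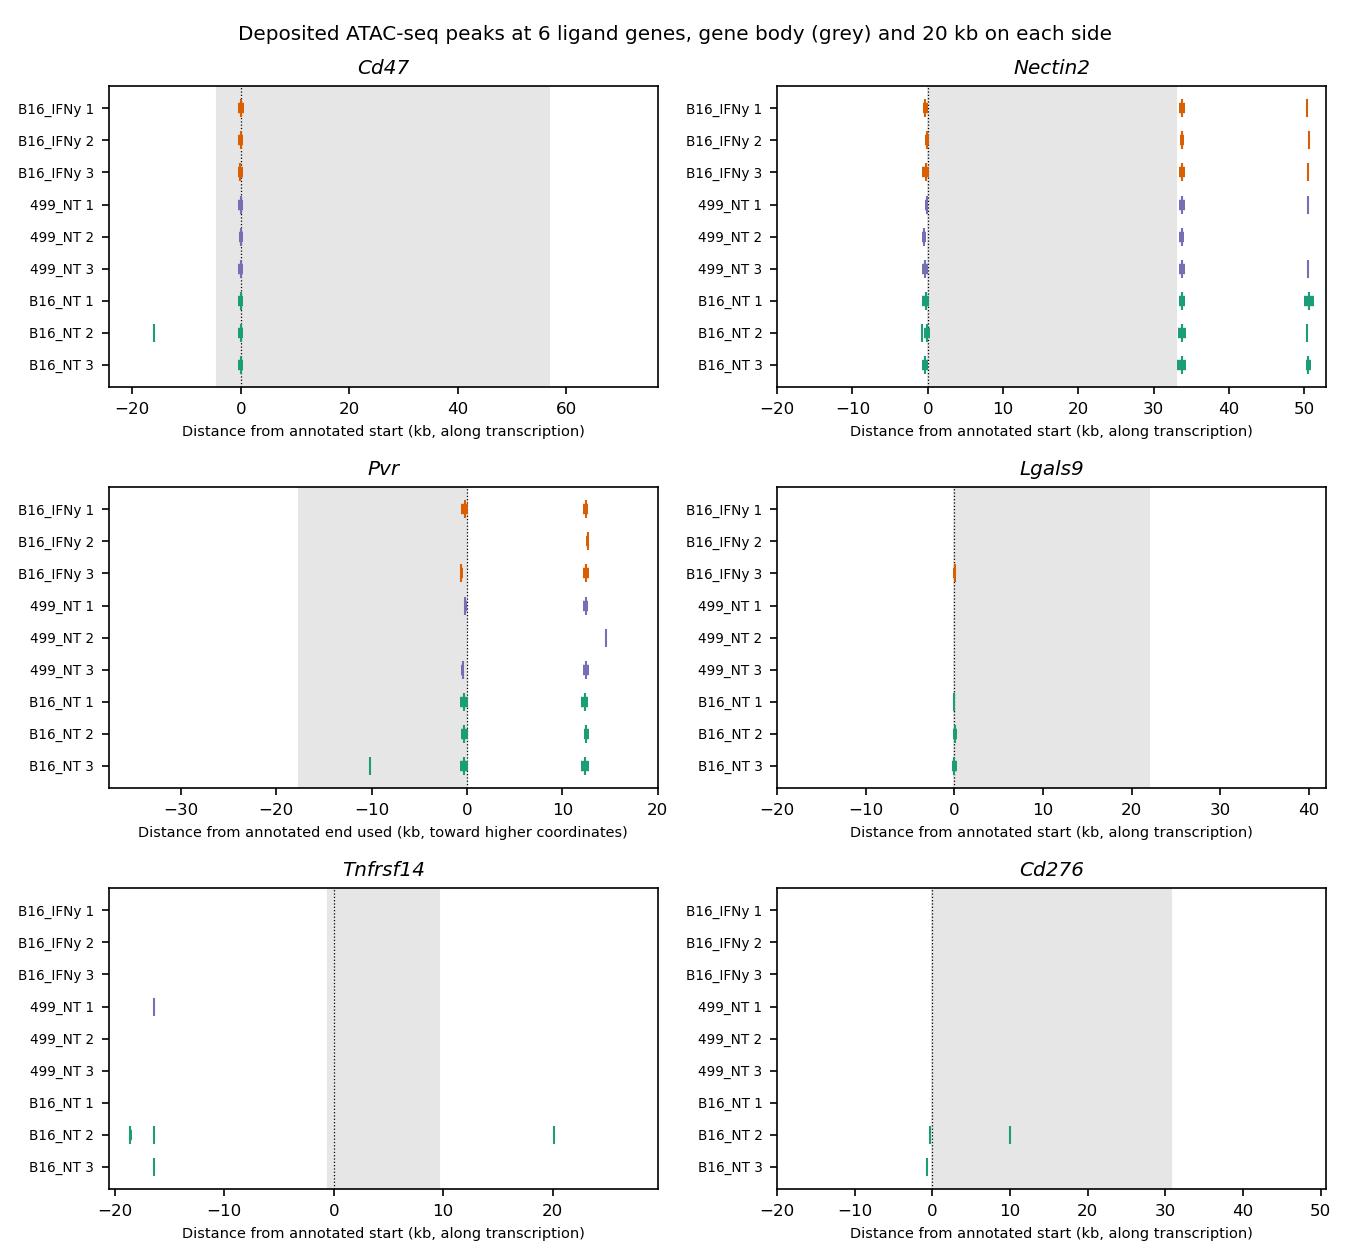
Peaks at the 6 genes in each library (rows, B16_IFNy orange, 499_NT purple, B16_NT green), against distance in kb from each gene's annotated start (x axis). Bars are peaks to scale with a tick at the midpoint, grey bars show the gene body, and Pvr is drawn from an annotated end since no strand was given. The Cd47 and Nectin2 starts carry a peak in all 9 libraries, whereas Cd276 and Tnfrsf14 carry scattered peaks in few.

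Cd47, the ligand of SIRPα, had an accessible start in every library. The region at chr16:49855147-49856244 (Cd47, gene ID 16423) covered the start in all 9, with summits 57 to 132 bp from it in B16_IFNy, 25 to 56 bp in 499_NT and 66 to 157 bp in B16_NT. Fold enrichment over the local background, here and below the authors' own value for a peak, was 8.92, 9.27 and 8.98 in B16_IFNy replicates 1, 2 and 3, 7.65, 6.60 and 6.85 in 499_NT, and 6.99, 14.2 and 7.67 in B16_NT. The peak's rank by −log10 p within its library, with 1 the most significant, was 1900, 1764 and 284 in B16_IFNy, 3007, 1645 and 710 in 499_NT, and 1848, 910 and 2743 in B16_NT. The 3 groups overlapped in rank. In fold, all 3 B16_IFNy libraries lay above all 3 499_NT libraries, and both groups overlapped B16_NT, but each fold is relative to its own library's background and was not tested as a change. A further region 15.79 kb upstream, which overlaps the gene Gm4633, was called only in B16_NT replicate 2, at rank 18627. An annotated start or end of Gm4633 also lies within 1 kb of the region at the Cd47 start. Neither region need thus belong to Cd47 alone.

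All 3 Cd47 GC boxes lay under the peak in all 9 libraries. To compare libraries, each was given a percentile, the standing of a region among the 4481 regions shared by all 9 equal-length lists. The Cd47 start averaged the 73.2 ± 17.9 percentile in B16_IFNy, 65.0 ± 20.4 in 499_NT and 63.4 ± 16.9 in B16_NT (SD, n = 3 each). The difference from B16_NT was 9.88 percentile points in B16_IFNy (SE 15.7, 95% interval −23.8 to 43.6, limma adjusted p = 0.997) and 1.61 in 499_NT (interval −32.1 to 35.3, limma adjusted p = 0.992). The groups overlapped, and intervals this wide leave room for large shifts in either direction.

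Nectin2, which encodes CD112, was also accessible at its start in every library. The region at chr7:19749308-19750411 (Nectin2, gene ID 19294) also overlaps the lncRNA Gm34744, which has an annotated start or end within 1 kb of it. Accessibility thus cannot be divided between the 2 genes. Fold there was 8.88, 6.66 and 6.80 in B16_IFNy, 5.61, 7.40 and 6.07 in 499_NT, and 6.79, 10.8 and 11.5 in B16_NT. Ranks were 1930, 3924 and 1804 in B16_IFNy, 6231, 891 and 1319 in 499_NT, and 1997, 2808 and 376 in B16_NT. The groups overlapped in ranks and in fold, and the 499_NT libraries alone spanned ranks from 891 to 6231. The peak of 499_NT replicate 2 was the only 1 of the 9 that stopped short of the annotated start. Widths were 560 to 985 bp in B16_IFNy, 386 to 852 bp in 499_NT and 798 to 1001 bp in B16_NT. The GC boxes of the window lay under a peak in 8 libraries and the CRE in 7.

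The Nectin2 start averaged the 51.9 ± 17.3 percentile in B16_IFNy, 54.7 ± 38.4 in 499_NT and 65.9 ± 23.5 in B16_NT (SD, n = 3 each). B16_IFNy lay 14 points below B16_NT in the fit, a difference of −14 (SE 21.4, 95% interval −60.0 to 32.0, limma adjusted p = 0.997), and 499_NT differed from B16_NT by −11.2 (interval −57.2 to 34.8, limma adjusted p = 0.962). Both differences were smaller than the spread within 499_NT alone.

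At the far end of Nectin2, 215 bp beyond the gene, the region chr7:19715215-19716429 was called in all 9 libraries and outranked the Nectin2 start in 8. It overlaps Tomm40, which encodes the channel of the mitochondrial import complex, and the lncRNA Gm38955. Each has an annotated start or end within 1 kb of the region, which so need not belong to Nectin2. Ranks of this region were 1423, 2225 and 276 in B16_IFNy, 1599, 500 and 880 in 499_NT, and 2399, 510 and 354 in B16_NT. It averaged the 73.5 ± 19 percentile in B16_IFNy, 79.4 ± 10.9 in 499_NT and 78.2 ± 21.6 in B16_NT (SD, n = 3 each), with overlap among all groups. The difference from B16_NT was −4.68 in B16_IFNy (interval −31.1 to 21.7, limma adjusted p = 0.997) and 1.18 in 499_NT (interval −25.2 to 27.5, limma adjusted p = 0.992). A weaker region at chr7:19698252-19699563, 17081 bp beyond the gene body, overlaps another protein-coding gene with an annotated start or end within 1 kb. It too need not belong to Nectin2. This weaker region was called in 3 B16_IFNy, 2 499_NT and 3 B16_NT libraries at ranks of 8834 or more.

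**Figure D3:**
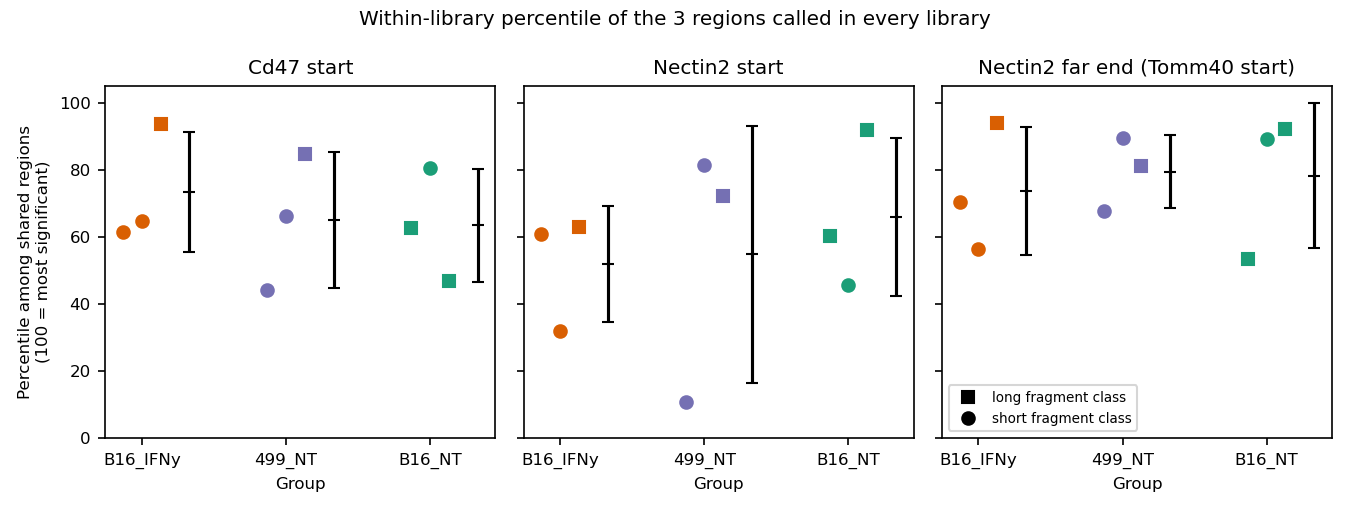
Within-library percentile (y axis, 100 the most significant) of the far-end Nectin2 region, the Nectin2 start and the Cd47 start among 4481 shared regions, for B16_IFNy, 499_NT and B16_NT. Points are libraries (squares long, circles short fragment class), and bars are the mean ± SD (n = 3). The groups overlap in all 3 panels, and 499_NT spreads most at the Nectin2 start, from 10.7 to 81.3.

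Pvr, which encodes CD155, lies on the same chromosome as Nectin2. The region at the higher annotated end of Pvr (gene ID 52118), chr7:19920357-19921261, was called in 2 B16_IFNy, 2 499_NT and 3 B16_NT libraries. The table gives no strand for Pvr, so this end is not shown to be its start. Fold was 7.49 and 4.09 in B16_IFNy replicates 1 and 3, 5.68 and 6.14 in 499_NT replicates 1 and 3, and 5.37, 8.09 and 7.64 in B16_NT. Ranks were 5507 and 10594 in B16_IFNy, 8785 and 5369 in 499_NT, and 9445, 9719 and 8055 in B16_NT, so the groups overlapped. The peak reached the annotated end in 1 B16_IFNy, 1 499_NT and 3 B16_NT libraries. Widths were 215 to 720 bp in B16_IFNy, 319 to 400 bp in 499_NT and 727 to 854 bp in B16_NT. The narrowest B16_NT peak, at 727 bp, was thus close to the widest B16_IFNy peak, at 720 bp. The difference was not tested, and widths were not set against those of all regions.

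A second Pvr region at chr7:19933077-19933947, 11.93 kb outside the gene, outranked the end region in 5 of the 7 libraries that had both. It was called in 3 B16_IFNy, 2 499_NT and 3 B16_NT libraries. Its ranks were 9077, 5383 and 5555 in B16_IFNy, 3458 and 1854 in 499_NT replicates 1 and 3, and 3477, 11613 and 1807 in B16_NT. 499_NT replicate 2, which had the shortest list, lacked both Pvr regions and held a peak of its own 14.51 kb outside the gene, at rank 7145 of 9221. Another peak within the gene body was called in B16_NT replicate 3 alone. In every library that had both, the start region of Nectin2 outranked the Pvr end region, in 7 of 7.

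Lgals9, which encodes galectin-9, showed the most uneven calls by group at a start. The region chr11:78984664-78985188 (Lgals9, gene ID 16859) was called in 1 B16_IFNy library, 0 499_NT libraries and 3 B16_NT libraries. Fold was 5.81 in B16_IFNy replicate 3, against 4.93, 6.80 and 6.17 in B16_NT. The recovered pileup at the summit, in fragments, was 13 in B16_IFNy replicate 3 (95% Poisson interval 6.92 to 22.2), against 14, 15 and 18 in B16_NT (lowest and highest limits 7.65 and 28.4). These intervals overlap and cover counting error only. A library without the peak has no pileup, so the counts compare called peaks only, and they were not scaled for depth. The summits lay 34 bp from the start in B16_IFNy and 6 to 41 bp in B16_NT, and both response element matches fell under the peak in all 4 libraries.

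The Lgals9 peak lay in the less significant part of each list, at rank 7079 of 11183 in B16_IFNy replicate 3, and at ranks 12606 of 15045, 13127 of 25374 and 11829 of 20139 in B16_NT. Its −log10 p was 9.43 in B16_IFNy replicate 3 and 8.30 to 11.9 in B16_NT, while the least significant peaks of the 9 lists had −log10 p of 4.41 to 4.92. Of the 5 libraries without the peak, the longest list held 16240 peaks, and the shortest list with the peak held 11183. In the full lists this made the Lgals9 start a region lost in 499_NT, absent from all 3 499_NT libraries and present in all 3 of B16_NT, as were 3.97% of the regions in that comparison. The B16_NT pattern of 3 with 0 in 499_NT occurred at 169 of 17491 coding starts, or 0.966%. In the equal-length lists the call was not made, where the peak was left in 1 B16_IFNy, 0 499_NT and 0 B16_NT libraries. The single B16_IFNy library with the peak is both the one treated for 3 weeks and the only B16_IFNy library of the long fragment class, which cannot be told apart.

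Tnfrsf14, which encodes HVEM, had no peak at its start in any library. Its annotated start is at chr4:154928077 (Tnfrsf14, gene ID 230979), and the nearest region, chr4:154944364-154944537, lay 16.29 kb upstream. That region was called in 1 499_NT library (fold 4.34, rank 13750) and 2 B16_NT libraries (fold 6.51 and 6.68, ranks 14194 and 9044), and in 0 of B16_IFNy. Further peaks 18.44 kb upstream and 10487 bp beyond the far end of the gene body were called in B16_NT replicate 2 alone, at ranks 19441 and 23138. A start with no peak was common, at 47.1% of coding starts, and a missing peak says only that none passed the authors' caller.

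Cd276, which encodes B7-H3, had 3 regions, each called in a single B16_NT library. Regions at chr9:58555159-58555418 and chr9:58555597-58555799 (Cd276, gene ID 102657) lay 126 and 564 bp upstream of the start. Their fold and rank were 5.09 and 20216 in B16_NT replicate 2, and 5.0 and 15595 in B16_NT replicate 3. The third, in the gene body, had a fold of 5.04 at rank 20717 in B16_NT replicate 2. All of these ranks lie beyond the 9214 peaks of the equal-length lists, and no B16_IFNy or 499_NT list reached ranks 20216 and 20717. Rank 15595 lay within the list of B16_IFNy replicate 1, which held 16240 peaks and none at Cd276.

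**Figure D4:**
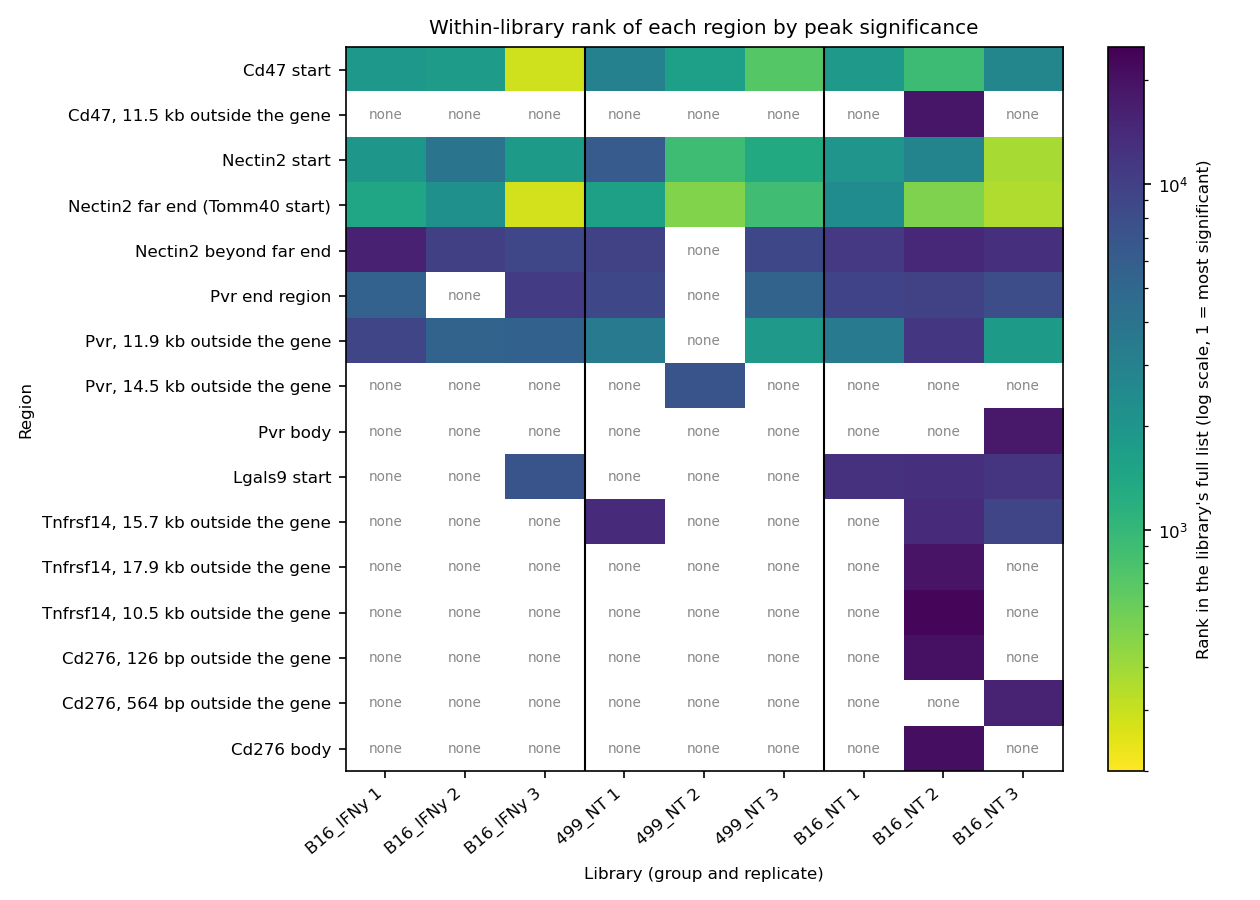
Rank of each region at the 6 genes (rows) by peak significance in each library (columns, B16_IFNy, 499_NT and B16_NT), with lighter colour for a more significant rank (log scale) and "none" where no peak was called. The Cd47 and Nectin2 starts are filled across all 9 libraries, and the Lgals9 start in 1 B16_IFNy, 0 499_NT and 3 B16_NT libraries.

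No region of the 6 genes was gained or lost in the equal-length lists. Gained means called in every library of the first side of a comparison and none of the second, and lost is the reverse. With B16_IFNy and 499_NT together, the first side holds all libraries of both groups, so the rule is stricter there. Over all regions the shares were 0.398% gained and 0.611% lost in B16_IFNy against B16_NT, 0.596% and 0.984% in 499_NT against B16_NT, and 0.399% and 0.557% in 499_NT against B16_IFNy. With B16_IFNy and 499_NT together against B16_NT, 0.0447% were gained and 0.204% lost. At such shares, a count of 0 among 8 regions, or among 9 with both groups together, carries little information. The comparisons share libraries and are not independent of each other.

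In the full lists, whose lengths differ, 1 region of the 6 genes was lost in 499_NT against B16_NT, the Lgals9 start, and none was gained or lost in the other comparisons. The shares over all regions were 0.0164% gained and 2.52% lost in B16_IFNy against B16_NT, and 0.0263% gained and 3.97% lost in 499_NT against B16_NT. In 499_NT against B16_IFNy they were 0.147% and 0.611%, and with both groups together against B16_NT 0.00306% and 1.26%. Losses outnumbered gains over all regions in each of these comparisons.

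Of the 3 regions tested by limma, 0 passed an adjusted p of 0.05 in any of these comparisons, and 0 had an unadjusted p under 0.05. Over all 4481 shared regions, limma called 1 region in B16_IFNy against B16_NT (0.0223%), 1 in 499_NT against B16_NT (0.0223%), 0 in 499_NT against B16_IFNy (0.0%) and 1 with both together (0.0223%). Unadjusted p-values under 0.05 numbered 173, 281, 278 and 214 in the same order of comparisons. Between 499_NT and B16_IFNy, the difference was −8.26 percentile points at the Cd47 start (interval −42.0 to 25.4, limma adjusted p = 0.971) and 2.83 at the Nectin2 start (interval −43.1 to 48.8, limma adjusted p = 0.998). Neither exceeded the spread between libraries.

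Fragment class, a split made here by the shortest peak of each list and given by no label, moved with some of these values. What sets it was not tested. Replicate 3 of each group was of the long class, so the class partly follows replicate number. Each of B16_IFNy and 499_NT had 2 short-class libraries and 1 of the long class, while B16_NT had 1 short and 2 long. At the Cd47 start the short-class mean percentile was 63.0 in B16_IFNy, 55.1 in 499_NT and 80.6 in B16_NT, and the long-class mean was 93.8 in B16_IFNy, 84.7 in 499_NT and 54.7 in B16_NT. The direction against B16_NT was thus opposite in the 2 classes. At the Nectin2 start the short-class means were 46.4, 46.0 and 45.7 in B16_IFNy, 499_NT and B16_NT, and the long-class means were 63.0, 72.2 and 76. The 499_NT short-class mean averaged libraries at 10.7 and 81.3, which lie on both sides of its long-class library at 72.2, so the close short-class means do not show that those libraries were alike. A class holds 1 library of a group in places, and no test was made within a class.

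Most receptors of these ligands had no peak at the start. Where no strand was given, a peak at either annotated end was counted, which is not shown to be a start. Among the genes named next this applies to Cd226, Sirpa, Qpctl, Thbs1, Cadm1, Lgals1, Fgl1 and Nectin1. Of 7 receptor genes, 0 had a peak at a start or such an end in all 9 libraries and 5 had none in any library: Havcr2, which encodes TIM-3, Btla, Tigit, Cd96 and Cd226. A peak was called in 1 B16_NT library at the Cd160 start and in 2 at an annotated end of Sirpa, and in no B16_IFNy or 499_NT library at either. Of 4 other partners, Qpctl, whose enzyme modifies the CD47 N-terminus at the SIRPα contact, had a peak at an annotated end in all 9, and Thbs1, a secreted CD47 ligand, in 2 B16_IFNy, 3 499_NT and 3 B16_NT libraries. Tnfsf14, which encodes LIGHT, and Lta had no start peak. By comparison, 29.4% of coding starts had a peak in all 9 libraries and 52.9% in at least 1. These shares are of starts, so they are not fully alike to counts that take either end of a gene without a strand.

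Among 12 related ligands and nectin-family genes, 3 had a peak in all 9 libraries: Nectin3, an adhesion molecule gene, at its start, and Cadm1, also of an adhesion molecule, and Lgals1, which encodes galectin-1, at an annotated end. Another 5 had none: Nectin1, Nectin4, Cd200, Vsir and Vtcn1. Lgals8, the galectin-8 gene, had a start peak in 2 B16_IFNy, 2 499_NT and 3 B16_NT libraries. Lgals3, the galectin-3 gene, had a start peak in 1 499_NT library. Fgl1, whose product is a ligand of LAG-3, had a peak at an annotated end in 2 libraries of each group, and Ceacam1, whose product binds TIM-3, had a start peak in 1 B16_IFNy, 0 499_NT and 1 B16_NT libraries. None of the genes in these lists was gained or lost at its start or such an end in the equal-length lists, and neither Qpctl nor Nectin3, the 2 that could be tested, passed the limma threshold.

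Markers of the sorted cells were checked in the same way. All 7 melanocyte markers had a peak at the start, or for Pmel, Sox10 and Mlana with no strand given at an annotated end, in at least 1 library, and Mitf, Dct and Pmel had one in all 9. Tyr had one in 3 B16_IFNy, 1 499_NT and 3 B16_NT libraries and Tyrp1 in 1, 1 and 3 in the same order, while Sox10 had one in 1 B16_NT library and Mlana in 1 499_NT library. In the equal-length lists the Tyrp1 start was lost in 499_NT against B16_NT, with a peak in 0 499_NT and 3 B16_NT libraries. Over all regions 0.984% were lost there. The call lay close to the cut at 9214 peaks, with ranks of 8792, 9043 and 8275 in B16_NT and 9951 in 499_NT replicate 3. In the full lists the Tyrp1 start was not lost. The Lgals9 start was lost in the same comparison but in the full lists only, and a relation between these losses was not tested. None of the 7 leukocyte, 2 endothelial or 2 keratinocyte markers had one. Of 3 fibroblast markers, Col1a1 had a peak at an annotated end in 3 B16_IFNy, 1 499_NT and 3 B16_NT libraries. The part of other cells in the peaks at the 6 genes was not tested, and a change in accessibility per cell and a change in the share of cells with an open site cannot be told apart in such bulk libraries.

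Patterns most like those of the Cd47 and Nectin2 starts were sought among 3431 other start regions, by Pearson correlation of the percentile over the 9 libraries. For the Nectin2 start, the nearest were a region shared by Gin1 and Ppip5k2 (r = 0.927) and the Cep97 start (r = 0.911). For the Cd47 start they were Akr1e1 (r = 0.852) and Stk17b (r = 0.814). The points share libraries, depth and list length, and maxima over so many regions are only a description.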

How the data were processed

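ATAC-seq peak lists of 9 libraries were used. CASAVA, cutadapt 1.9, Bowtie2 2.2.4 and MACS2 are the tools, and GRCm38 (mm10) is the build, per the submitters' processing notes. The MACS2 version, settings and any transposase shift are not given in the sources used here; a missing shift would move peak edges by a few bases. Each library was called separately by the authors. The deposited values per peak are a score, fold enrichment (a ratio) over local background, and −log10 p and −log10 q. They hold no read counts. Fold and −log10 p together gave whole summit pileups in 100% of 1000 checked peaks per library (−log10 p under 200, tolerance 0.01). Relative depth was inferred from the lowest recovered background among less significant peaks. Divided by the width of the shortest peak, taken as the fragment length, it was 7.59 to 11.1 fragments per kb.

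Overlapping or touching peaks were merged, and a region was called with at least 1 overlapping base. Equal-length lists kept the 9214 most significant peaks per library. Percentiles of −log10 p over regions in all 9 lists were fitted with limma 3.58.1 (R 4.3.3; trend, 3 groups, Benjamini-Hochberg over all regions, threshold 0.05), and the steps were tested on simulated data. With 3 libraries a group the smallest exact p is 0.1, so single gained or lost regions have no p. A library was put in the long fragment class if its shortest peak reached 150 bp.

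Positions, starts and promoter windows came from RefSeq tables of GRCm38.p6, with no exons or UTRs and no promoter entry for Pvr. The rule named all 6 genes, the pathway genes by list and the regions with the most alike pattern. These genes and lists were chosen with earlier results of these data known. Alternatives were full or shorter lists, other windows, other overlap and ranking rules, array weights, fragment class, a replicate block and each library left out.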

Additional observations from a re-analysis of the deposited data

How the results depend on the processing

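The number of regions at the 6 genes was 16, and became 9 within 5 kb, 31 within 50 kb and 9 in the equal-length lists. It ran from 11 to 16 with 1 library left out. The gained and lost count for 499_NT against B16_NT was 0 and became 1, the Lgals9 start, with the full lists; leaving out any library kept all counts of gained, lost and limma-called regions at 0 to 0. The lowest adjusted p of the 3 tested regions in any setting was 0.705. At the far-end Nectin2 region the sign turned in 6 settings that left out no library: −0.0502 with normal scores and −6.77 with array weights for 499_NT against B16_NT, 15.6 by fold for B16_IFNy against B16_NT, −2.19 by fold for 499_NT against B16_IFNy, and 14.5 by fold and 0.105 with fragment class as a term for both groups together. The cause was not tested.

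With each library left out, differences at the far-end Nectin2 region ran from −16.8 to 3.86 for B16_IFNy against B16_NT, −11.0 to 8.04 for 499_NT against B16_NT, −2.65 to 15.6 for 499_NT against B16_IFNy and −13.9 to 5.19 for both together. In the same order they ran at the Nectin2 start from −23.6 to −1.30, −24.6 to 10.8, −11.0 to 24.6 and −22.4 to −0.0634, and at the Cd47 start from −0.466 to 18.2, −8.06 to 12, −17.9 to 2.26 and −2.56 to 14.1. Over all regions and all settings, other rankings and weights included, the limma calls ranged from 0 to 2, 0 to 2, 0 to 0 and 0 to 5.

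Same-number correlations between groups were −0.0335 to 0.0946 over 9 pairs, and different-number ones were −0.088 to 0.0517 over 18 pairs. No same-number pair reached the 0.1 required of each, so the main fit used no pairing. A weaker pairing by replicate number is not excluded by this check. With the replicate block the Nectin2 start difference for B16_IFNy was −14, and 0 of the 3 regions passed in any comparison. The lists hold only peaks that passed the authors' caller, so a missing peak is not absent accessibility.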

Other observations

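The 1 region that limma called over all shared regions was looked at after its values were seen. It lies at chr9:3000012-3000862 and overlaps no gene of the RefSeq table. Its percentile was 97.4 to 99.5 in B16_IFNy and 97.7 to 99.2 in 499_NT, against 37.9 to 55.4 in B16_NT. The limma adjusted p was 0.00755 for B16_IFNy, 0.00741 for 499_NT and 0.00141 for both together. With percentiles taken by fold instead of −log10 p, limma called 0 regions in every comparison. The lowest limma adjusted p over all regions was then 0.109 for B16_IFNy, 0.512 for 499_NT and 0.265 for both together. The peaks were filtered here by chromosome only, and whether mapping plays a part in this region was not tested. Over all shared regions, limma called 0 for B16_IFNy against B16_NT without any 1 of the 3 B16_IFNy replicates or without 499_NT replicate 2, and 0 for 499_NT against B16_NT without any 1 of the 6 B16_IFNy and 499_NT libraries. It called 1 for B16_IFNy against B16_NT without 499_NT replicate 1 or 3. Without any 1 B16_NT library, it called 1 or 2 in each of these comparisons. With both groups together, 1 or 2 were called whichever library was left out. The lowest limma adjusted p of each such fit ran from 0.000311 to 0.0229.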
